A study of Mus musculus with 9 samples.

Results

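The clustered replication-dependent histone genes are the genes that supply histone protein to newly made DNA. They were taken as every gene name on the array that starts with Hist1h, Hist2h, Hist3h or Hist4h, and each was represented by its probe with the highest mean. There were 48 such genes among 36413 named genes and regions, with 52 probes among 55681, and 46 of the 48 were bright enough to be tested. By the histone named in the symbol, 6 genes belong to the linker histone H1, 15 to H2A, 11 to H2B, 8 to H3 and 8 to H4. Hist3h2bb-ps and Hist2h3c2-ps, whose symbols on the array mark them as pseudogenes, are counted with H2B and H3. The current symbol matched to Hist2h3c2-ps, H3c15, carries no such mark. On chromosome 13 lie 35 of them, with 9 on chromosome 3, 3 on chromosome 11 and 1 on chromosome 6.

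The nucleosome core holds H3 and H4, which enter as a tetramer, and H2A with H2B, which enter as dimers, and H1 binds the DNA between cores. Cells make these proteins from short genes, mostly without introns, that are transcribed together in S phase under Npat. Their mRNAs usually end in a conserved stem-loop in place of a poly(A) tail, and the stem-loop is bound by Slbp. A few of the genes are also reported to give polyadenylated transcripts, which can be made outside S phase.

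Levels were measured on 9 one-colour arrays in female mouse LSK cells, the bone marrow fraction negative for lineage markers and positive for Sca1 and cKit that holds stem and early progenitor cells. There were 3 groups of 3 samples: control cells (Gt(ROSA)26Sor CreERT2), Drosha-deleted cells (Drosha fl/fl Gt(ROSA)26Sor CreERT2) and Dicer-deleted cells (Dicer fl/fl Gt(ROSA)26Sor CreERT2). Controls carried the Cre and met the drug as well, since all cells were cultured for 72 h in 10% FCS with 50 ng/mL SCF, 10 ng/mL IL-6, 10 ng/mL IL-3 and, to switch on the Cre, 250 nM 4OH-tamoxifen. The Cre is expressed from the Rosa26 locus in all cell types. Drosha and Dicer act in turn in making microRNAs, so each deletion was set against the control and the deletions against each other. The labels do not say that the samples of a group came from separate animals, so p-values measure the spread between these samples, which may be technical.

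Values are the authors' log2 values, so that a difference of 1 is a 2-fold difference. Drosha itself was at 11.85 to 12.04 in the controls, 11.94 to 12.16 in the Dicer-deleted cells and 8.81 to 9.32 in the Drosha-deleted cells (limma, adjusted p = 0.000163 against control). Dicer1 was at 8.97 to 9.18 in the Dicer-deleted cells and 9.92 to 10.50 in the controls (adjusted p = 0.123), and whether its probe lies in the deleted part is not given in the sources used here. On 8 arrays 54.2% to 62.3% of spots were well above background. The scanner file of control 2 stood apart, with 18.9% of spots marked non-uniform and 93.2% well above background, and the authors' column for that sample correlated at 0.770 with its own file and at 0.974 with the file of control 3. The columns of controls 2 and 3 correlated at 0.991 with each other, while the column closest to control 1 was Dicer-deleted 3, at 0.993. Control 3 was also alone on its slide. Results against the control are therefore given with all 3 controls. For many of the members described, the differences from control 1 alone and from controls 2 and 3 alone are given too. For some genes that are no members only the difference from control 1 alone is added. Against controls 2 and 3 alone limma called 7319 of 20842 genes for the Drosha-deleted and 6628 for the Dicer-deleted cells (adjusted p under 0.05). Passing the threshold there is thus common over all genes. Which array lies behind the column of control 2 is not settled, so the columns of controls 2 and 3 may not be separate readings. The part that the array or slide plays was not tested. Kit, Ly6a and Cd34, which mark LSK cells, were well above background on all 9 arrays. Of 9 LSK markers listed 8 were tested. Their summed level, the log2 of the summed linear values, was 16.04 to 16.32 in the control samples. In the Drosha-deleted samples it was 15.76 to 16.53 and in the Dicer-deleted samples 15.98 to 16.28. Markers of other blood cells, given below, were present too, and the share of cells still in the LSK state was not tested.

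The probes show what the array can read of these mRNAs. The conserved stem-loop was searched in the probes on their own strand as GGCTCTTNTNAGAGCC, where N is any base. It occurred whole in 5 of the 52 member probes (9.62%), which were the 5 probes that hold it among all 55681 (0.00898%). The part of each probe around it is printed 5' to 3' with the stem-loop in capitals, to show the end of the mRNA that sets these genes apart.
Hist2h2aa1: taaaaaGGCTCTTTTCAGAGCCacccact
Hist2h2bb: cccaaaaGGCTCTTTTCAGAGCCacttta
Hist1h3a: aaccaaaGGCTCTTTTCAGAGCCaca
Hist1h3g: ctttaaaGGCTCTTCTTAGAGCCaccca
Hist1h3i: aacaaaaGGCTCTTTTCAGAGCCccctc
The letters of the loop differ between Hist1h3g and the others. In 4 of the 5 genes the probe ends 3 to 6 bases after the stem-loop. The Hist2h2aa1 probe, at chr3:96049949-96050008 on the + strand of mm9, runs on for 38 bases and so also reads sequence beyond the usual mRNA end. The Hist1h2ae probe starts inside the stem-loop and has 48 bases beyond it, and the Hist1h2ab probe ends inside it.

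Coding sequences within a class are alike, and so are many probes. Of 1128 pairs of members 10 had probes that match at 48 or more of 60 bases, all of them between 5 H2A genes. The probe of Hist1h2ak, at chr13:21845304-21845363 on the - strand of mm9, is set beside 3 of those, with the bases that differ from it in capitals.
Hist1h2ak: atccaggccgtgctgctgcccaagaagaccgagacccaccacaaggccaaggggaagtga
Hist1h2af: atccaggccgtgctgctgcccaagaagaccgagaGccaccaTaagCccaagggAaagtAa
Hist1h2an: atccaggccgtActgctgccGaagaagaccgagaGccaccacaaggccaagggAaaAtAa
Hist2h2aa2: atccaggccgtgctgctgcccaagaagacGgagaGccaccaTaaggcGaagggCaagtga
They differ from it at 5, 6 and 5 bases, and each ends in a stop codon. The second probe of Hist1h4k, at chr13:21842279-21842338 on the - strand, is likewise set beside the probe of Hist1h4c, the H4 gene with the widest difference, which lies at chr13:23790223-23790282 on the - strand.
Hist1h4k: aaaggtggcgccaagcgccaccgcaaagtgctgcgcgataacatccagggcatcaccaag
Hist1h4c: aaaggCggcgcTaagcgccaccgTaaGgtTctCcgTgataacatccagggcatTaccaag
These differ at 8 of 60 bases. The array's own annotation lists several RefSeq transcripts for the probes of 14 members, among them 6 H2A and 4 H4 genes. Values of single H2A and H4 genes may thus hold signal from their near-identical copies.

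Signal ranged widely within each class, and since probes differ in brightness the order of genes is no order of mRNA amounts. Among H1 genes the mean over the 9 columns ran from 5.65 for Hist1h1d to 14.4 for Hist1h1e. Among H2A genes it ran from 6.50 for Hist1h2ac to 18.4 for Hist1h2ag, close to the highest value in the columns, 18.8, although no spot was marked as saturated. H2B genes ran from 5.78 for Hist3h2bb-ps to 12.8 for Hist1h2bm, H3 genes from 6.71 for Hist2h3c2-ps to 15.5 for Hist1h3d, and H4 genes from 7.70 for Hist1h4h to 16.7 for Hist1h4k. Hist1h1d, a linker histone gene, and the pseudogene Hist3h2bb-ps lay below the filter of 6.28 and were not tested. The array was well above background for them on 2 and 4 of the 9 arrays.

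**Figure D1:**
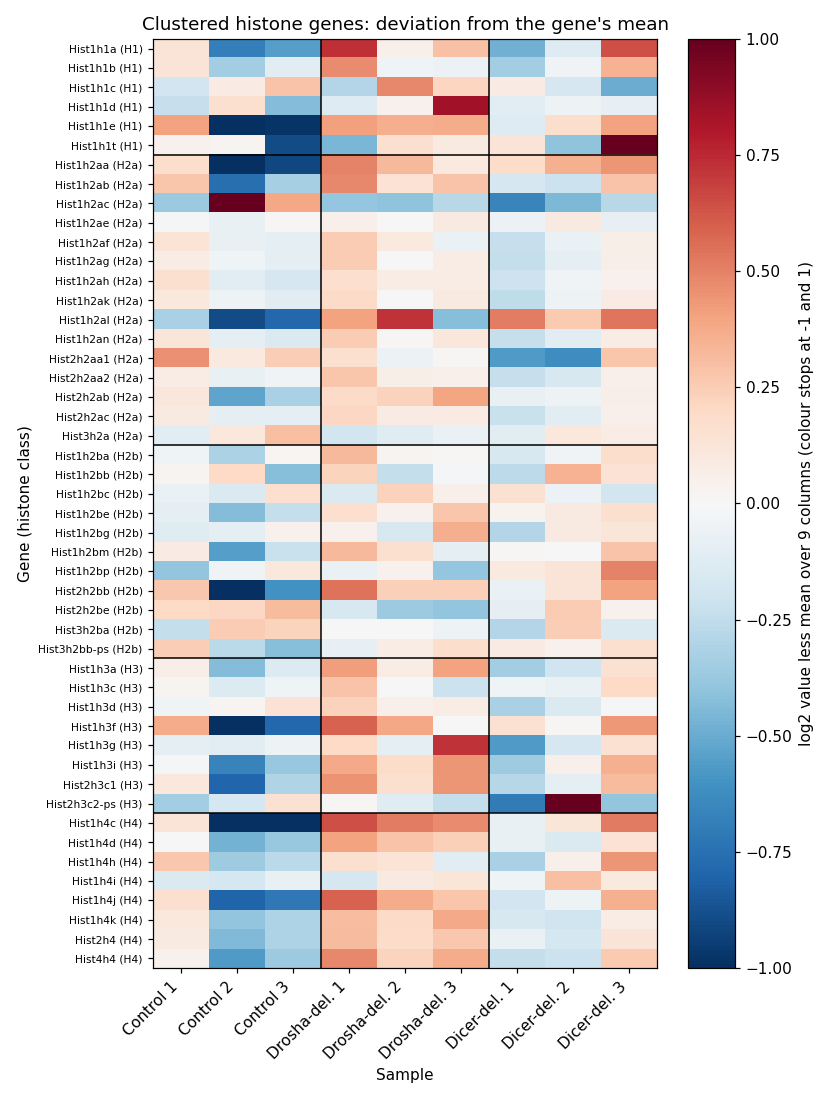
Each row is 1 of the 48 genes grouped by histone class, each column 1 of the 9 samples, and colour is the log2 value less the gene's mean over the 9 columns, with the colour scale ending at -1 and 1. Many rows, above all in H4, are blue in controls 2 and 3 and red in the Drosha-deleted columns, while control 1 is close to the deleted columns.

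In the Drosha-deleted cells most clustered histone genes lay above the control mean, H4 genes most, but none passed the test. Of the 46 tested genes 40 had a difference above 0, against 49.0% of all 20842 genes tested, and the median difference was 0.19 against -0.01 over all genes. With limma and Benjamini-Hochberg adjustment over all genes, 0 of 46 members passed a threshold of 0.05, where 0.13% of all genes were called higher and 0.048% lower. At an unadjusted p under 0.05 there were 16 members higher, where 15.8% of all genes were, and 1 lower, where 11.8% were, 17 in all (27.6%). The groups did not overlap for 11 members that were higher (12.6% of all genes) and 1 that was lower (10.6%). Without control 1 the test called 18 members higher (19.1% of all genes) and 2 lower (16.0%), and with array weights it called 23 higher (27.0%) and 3 lower (27.4%). The 18 higher were 6 H4, 4 H3, 3 H2B, 4 H2A and 1 H1 gene, and the 2 lower were Hist1h2ac and Hist2h2be. Against control 1 alone the median difference was 0.125, a value with no spread of its own in the control. Because the RNA came from whole cultures, a different share of cells in S phase and a different amount of histone mRNA per cell cannot be told apart.

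**Figure D2:**
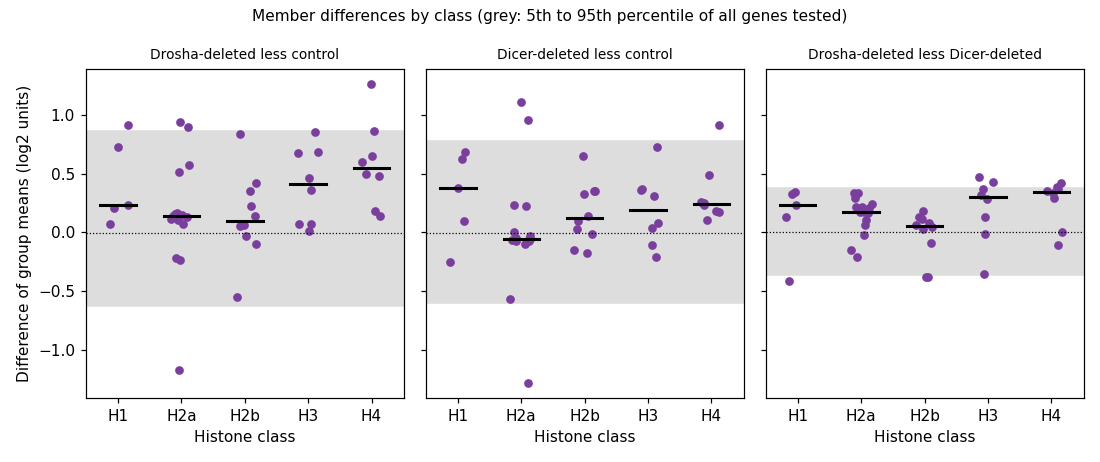
Points are the 46 tested genes by histone class, the vertical axis is the difference of group means in log2 units, bars are class medians, and the grey band spans the 5th to the 95th percentile of all genes tested. In the Drosha-deleted against control panel the H3 and H4 medians, 0.42 and 0.55, lie above those of H1, H2A and H2B, and in the Dicer-deleted against control panel all class medians lie between -0.06 and 0.38.

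By class the median difference between Drosha-deleted and control cells was 0.24 for H1, 0.14 for H2A, 0.10 for H2B, 0.42 for H3 and 0.55 for H4. Against control 1 alone these medians were -0.004, 0.02, 0.14, 0.23 and 0.22. Against controls 2 and 3 alone they were 0.37, 0.19, 0.10, 0.47 and 0.69. H3 and H4 genes, which form the tetramer, had medians above 0 with either choice, as did H2B with a smaller one, while the H1 and H2A medians lay near 0 against control 1.

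All 8 H4 genes had a positive difference, with adjusted p-values from 0.0967 to 0.620 (limma), and 6 of them did not overlap with the control. The probes of 4 of the 8 list several RefSeq transcripts, so the genes may not be separate readings. Over all tested members the median difference was 0.39 for the 14 with such probes and 0.17 for the 32 whose probes list 1 transcript. Hist1h4c read 11.81, 10.40 and 10.65 in controls 1 to 3, 12.32, 12.19 and 12.15 in Drosha-deleted 1 to 3, and 11.60, 11.80 and 12.20 in Dicer-deleted 1 to 3. Every Drosha-deleted sample lay above every control, controls 2 and 3 were the lowest of the 9, and control 1 lay within the Dicer-deleted range. The difference from control was 1.27 ± 0.33 (SE; 95% interval 0.52 to 2.02), a 2.41-fold higher level, with an adjusted p of 0.102 by limma. It was 0.41 against control 1 alone and 1.70 against controls 2 and 3 alone, where it passed the threshold. Hist1h4j followed the same order, with controls at 12.72, 11.74 and 11.83, Drosha-deleted samples at 13.14, 12.92 and 12.82, and Dicer-deleted samples at 12.35, 12.50 and 12.90. Its difference was 0.86 ± 0.26 (SE; limma adjusted p = 0.115), 0.24 against control 1 alone and, past the threshold, 1.17 against controls 2 and 3 alone.

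The 4 brightest H4 probes, of Hist1h4d, Hist1h4k, Hist2h4 and Hist4h4, had differences of 0.48 to 0.65, and each passed the threshold against controls 2 and 3 alone. Hist1h4d read 15.77, 15.30 and 15.39 in the controls, 16.18, 16.06 and 16.01 in the Drosha-deleted and 15.70, 15.63 and 15.91 in the Dicer-deleted samples. All Drosha-deleted values exceeded the other 6, and the difference from control was 0.60 ± 0.15 (SE; limma adjusted p = 0.0967; 0.31 against control 1 alone and 0.74 against controls 2 and 3 alone). Hist4h4, the H4 gene that lies alone on chromosome 6, read 14.64, 14.04 and 14.24 in the controls, 15.08, 14.82 and 14.97 in the Drosha-deleted and 14.36, 14.39 and 14.86 in the Dicer-deleted samples. Again each Drosha-deleted value was above each control, with a difference of 0.65 ± 0.19 (SE; limma adjusted p = 0.112; 0.32 against control 1 alone and 0.82 against controls 2 and 3 alone), and the Dicer-deleted range reached into that of the Drosha-deleted samples. Hist1h4k read 16.82, 16.32 and 16.41 in the controls, 17.02, 16.91 and 17.10 in the Drosha-deleted and 16.55, 16.52 and 16.79 in the Dicer-deleted samples. Its Drosha-deleted samples lay above all others, and its second probe gave 0.72 where the first gave 0.49. With the first probe it was 0.19 against control 1 alone and 0.65 against controls 2 and 3 alone. Hist2h4 gave 0.48 and did not overlap either, with 0.17 and 0.63 against these controls. Hist1h4h gave 0.18 with overlapping groups, -0.20 against control 1 alone and 0.37 against controls 2 and 3 alone. Hist1h4i gave 0.14 and overlapped, while its second probe gave -0.02, so the sign is unsettled for this gene.

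**Figure D3:**
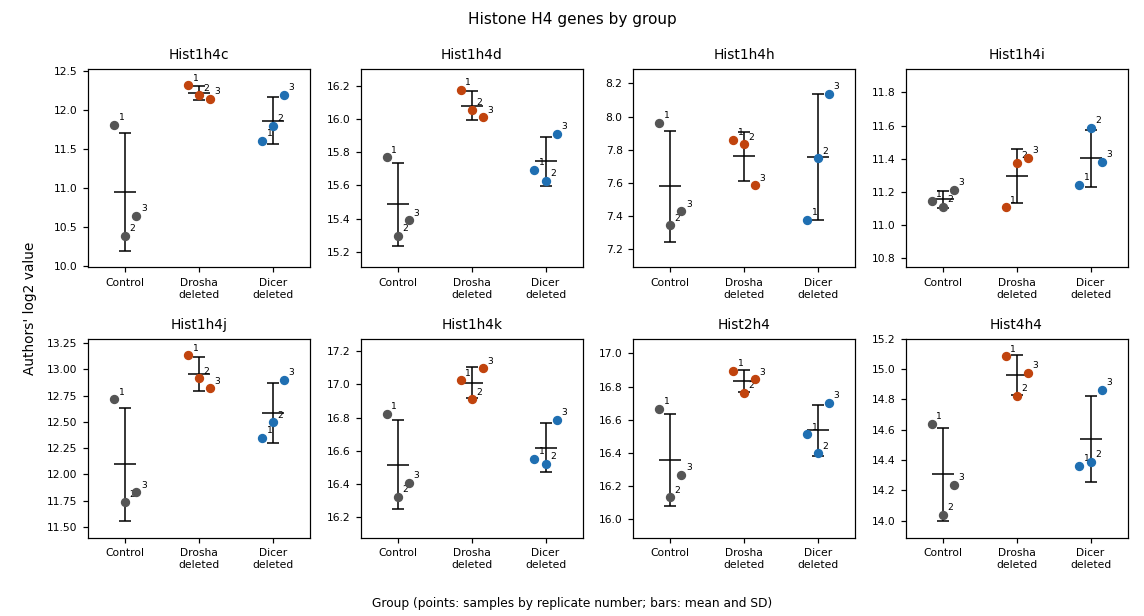
Panels are the 8 H4 genes, points are the authors' log2 values of single samples labelled by replicate number, and bars are the mean and SD of each group of 3. In 6 panels every Drosha-deleted point is above every control point, as for Hist1h4c with 12.15 to 12.32 against 10.40 to 11.81, and control 1 is the highest control in these 6.

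All 8 H3 genes had a difference above 0 as well, from 0.01 for Hist2h3c2-ps to 0.86 for Hist1h3f. Hist1h3i, whose probe holds the stem-loop shown above, read 9.08, 8.43 and 8.71 in the controls, 9.47, 9.28 and 9.54 in the Drosha-deleted and 8.73, 9.14 and 9.44 in the Dicer-deleted samples. The Drosha-deleted samples were above all controls, by 0.69 ± 0.22 (SE; limma adjusted p = 0.119; 0.35 against control 1 alone and 0.86 against controls 2 and 3 alone), and overlapped with the Dicer-deleted samples. Hist1h3a, also with the stem-loop in its probe, read 8.07, 7.57 and 7.86 in the controls, 8.42, 8.08 and 8.40 in the Drosha-deleted and 7.65, 7.80 and 8.15 in the Dicer-deleted samples. It did not overlap with the control, with a difference of 0.46 ± 0.18 (SE; limma adjusted p = 0.151; 0.23 against control 1 alone and 0.58 against controls 2 and 3 alone). Hist2h3c1 gave 0.68 and did not overlap, with Drosha-deleted samples at 12.78 to 13.08 and controls at 11.83 to 12.73; it was 0.25 against control 1 alone and 0.90 against controls 2 and 3 alone. The wide difference of Hist1h3f rested on controls 2 and 3, at 8.99 and 9.38 where control 1 was at 10.53, and it was -0.04 against control 1 alone and 1.30 against controls 2 and 3 alone. These 4 genes passed the threshold against controls 2 and 3 alone. In Hist2h3c2-ps 1 sample, Dicer-deleted 2, stood at 8.53 and the other 8 at 6.01 to 6.87.

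H2A genes ranged from -1.17 to 0.94. The 7 genes with means near 18 (Hist1h2af, Hist1h2ag, Hist1h2ah, Hist1h2ak, Hist1h2an, Hist2h2aa2 and Hist2h2ac) had differences from 0.11 to 0.17, and 5 of them share the alike probes shown above. Hist1h2ab, also bright at a mean of 16.2, gave 0.57 (limma adjusted p = 0.185), with 0.02 against control 1 alone and 0.85 against controls 2 and 3 alone. Hist2h2ab, a gene of the chromosome 3 cluster, read 8.18, 7.54 and 7.74 in the controls, 8.26, 8.29 and 8.46 in the Drosha-deleted and 8.0, 8.01 and 8.13 in the Dicer-deleted samples. Its Drosha-deleted values were the highest 3 of the 9, and the difference was 0.52 ± 0.16 (SE; limma adjusted p = 0.120; 0.16 against control 1 alone and 0.69 against controls 2 and 3 alone). Hist1h2al, whose probe lies at chr13:51299277-51299336 on mm9, apart from the main cluster, read 6.54, 5.97 and 6.08 in the controls, 7.26, 7.58 and 6.44 in the Drosha-deleted and 7.38, 7.13 and 7.40 in the Dicer-deleted samples. Drosha-deleted 3 lay within the control range, and the other 5 deleted samples lay above it. The difference was 0.90 ± 0.28 (SE; limma adjusted p = 0.118; 0.56 against control 1 alone and 1.07 against controls 2 and 3 alone). These 3 genes passed the threshold against controls 2 and 3 alone, as did Hist1h2aa, described below, and Hist1h2ac.

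H2B genes, the partners of H2A, had mixed differences from -0.55 to 0.83. Hist1h2be read 7.63, 7.29 and 7.49 in the controls, 7.90, 7.77 and 8.0 in the Drosha-deleted and 7.77, 7.82 and 7.89 in the Dicer-deleted samples. All 6 deleted samples lay above the 3 controls, by 0.42 ± 0.12 in the Drosha-deleted cells (SE; limma adjusted p = 0.112) and 0.36 ± 0.12 in the Dicer-deleted cells (adjusted p = 0.183). Against control 1 alone these differences were 0.26 and 0.20, and against controls 2 and 3 alone they were 0.50 and 0.44, both past the threshold. Hist2h2bb had the widest H2B difference, 0.83 (limma adjusted p = 0.142), which was 0.07 against control 1 alone and, past the threshold, 1.22 against controls 2 and 3 alone: these stood at 10.49 and 11.04, control 1 at 11.92 and the deleted samples at 11.58 to 12.18.

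On the low side in the Drosha-deleted cells stood Hist2h2be, an H2B gene reported to give polyadenylated transcripts. It read 8.35, 8.36 and 8.47 in the controls, 7.99, 7.79 and 7.75 in the Drosha-deleted and 8.06, 8.41 and 8.20 in the Dicer-deleted samples. All 3 Drosha-deleted samples lay below the other 6, and the controls lay close together. The difference from control was -0.55 ± 0.13 (SE; 95% interval -0.84 to -0.26; limma adjusted p = 0.0893), -0.50 against control 1 alone and, past the threshold, -0.57 against controls 2 and 3 alone. Its p with all 3 controls was the smallest among the members in this comparison.

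The other 3 genes reported to give polyadenylated transcripts had differences of other sizes. Hist1h1c, a linker histone gene, had overlapping groups with means of 11.42 ± 0.24 in the control, 11.50 ± 0.40 in the Drosha-deleted and 11.17 ± 0.29 in the Dicer-deleted cells (SD, n = 3). Hist1h2bc, an H2B gene, had means of 12.72 ± 0.16, 12.79 ± 0.19 and 12.71 ± 0.17 in the same order (SD, n = 3). Hist1h2ac, an H2A gene, gave -1.17 in the Drosha-deleted and -1.28 in the Dicer-deleted cells, and both differences rested on the column of control 2, at 8.94, with control 3 at 6.88, control 1 at 6.13 and the deleted samples at 5.84 to 6.22, 2 of which were not well above background. Against control 1 alone they were 0.02 and -0.09, and against controls 2 and 3 alone, past the threshold, -1.77 and -1.88. Over the 4 genes the median deviation from each gene's own mean was -0.13, 0.14 and 0.30 in controls 1 to 3, against 0.10, -0.46 and -0.34 for the 8 H4 genes. In controls 2 and 3 the small set thus lay on the other side of 0 from the H4 genes.

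Among linker histone genes the differences of Hist1h1e and Hist1h1a were larger against controls 2 and 3 than against control 1. Hist1h1e read 14.80 in control 1, 13.38 and 13.42 in controls 2 and 3, 14.76 to 14.81 in the Drosha-deleted and 14.27 to 14.80 in the Dicer-deleted samples. Control 1 matched the Drosha-deleted samples, so the difference of 0.91 ± 0.34 (SE; limma adjusted p = 0.142) was -0.02 against control 1 alone and, past the threshold, 1.38 against controls 2 and 3 alone. Hist1h1a gave 0.72, with 0.23 and 0.97 against these controls, and Hist1h1b 0.23, with -0.004 and 0.35. Hist1h1c ran the other way, at 0.08, with 0.32 against control 1 alone and -0.05 against controls 2 and 3 alone. Hist1h1t, a testis linker histone gene, had overlapping groups, with Dicer-deleted 3 at 8.73 and the other 8 samples at 6.52 to 7.58.

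**Figure D4:**
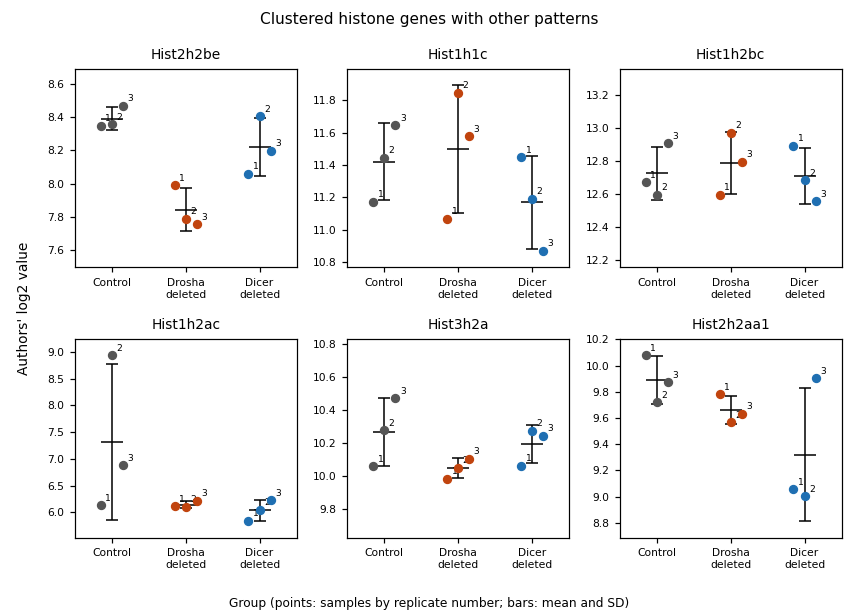
Panels are 6 genes that do not follow the H4 order, points are the authors' log2 values of single samples labelled by replicate number, and bars are the mean and SD of each group of 3. Hist2h2be is lower in all Drosha-deleted samples (7.75 to 7.99) than in all controls (8.35 to 8.47), and the control spread of Hist1h2ac comes from control 2 at 8.94.

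In the Dicer-deleted cells the members were spread around the control mean, and none passed the test. Of the 46 tested genes 30 had a difference above 0 (49.4% of all genes), with a median of 0.12, and limma called 0 members, where 0.0048% of all genes were called higher and 0.0096% lower. At an unadjusted p under 0.05 there were 4 members higher (13.1% of all genes) and 1 lower (9.05%), 5 in all (22.2%). Non-overlapping groups were found for 4 members that were higher (11.7%) and 0 that were lower (9.88%). Without control 1 the test called 10 members higher (17.6% of all genes) and 1 lower (14.2%), and with array weights 12 higher (24.6%) and 5 lower (22.9%). Against control 1 alone the median turned to -0.11, again with no spread in the control. With all 3 controls the class medians were 0.38 for H1, -0.06 for H2A, 0.12 for H2B, 0.19 for H3 and 0.24 for H4. All 8 H4 genes had a difference above 0 here too. Against control 1 alone 2 of these 8 did, and the H4 median was -0.12.

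The genes above all controls were Hist1h2aa, Hist1h2al, Hist1h2be and Hist1h4i. Hist1h2al had the smallest p, with a difference of 1.11 ± 0.28 (SE; limma adjusted p = 0.147). It was 0.76 against control 1 alone and 1.28 against controls 2 and 3 alone. Hist1h2aa, a testis H2A gene, read 9.15, 7.81 and 8.07 in the controls, 9.16, 9.33 and 9.42 in the Dicer-deleted and 9.47, 9.30 and 9.07 in the Drosha-deleted samples. Control 1 lay beside the deleted samples, and the difference of 0.96 ± 0.31 (SE; limma adjusted p = 0.173) was 0.15 against control 1 alone and 1.36 against controls 2 and 3 alone. In the Drosha-deleted cells it was 0.94, with 0.14 and 1.34 against these controls. Hist1h4i read 11.14, 11.11 and 11.21 in the controls and 11.24, 11.58 and 11.38 in the Dicer-deleted samples, a difference of 0.25 ± 0.13 (SE; limma adjusted p = 0.287), and its second probe gave 0.26. It was 0.26 against control 1 alone and 0.24 against controls 2 and 3 alone. Hist1h4c gave 0.92 ± 0.33 (SE; limma adjusted p = 0.186), with 0.06 against control 1 alone and 1.35 against controls 2 and 3 alone. Of these genes Hist1h2al, Hist1h2aa, Hist1h2be and Hist1h4c passed the threshold against controls 2 and 3 alone. Hist1h2ak gave -0.06 with its brighter probe and 0.06 with the other, and Hist2h4 gave 0.18 with its brighter probe and -0.08 with a dim one, so that both signs are unsettled.

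Hist2h2aa1, whose probe reads past the stem-loop, had the largest negative difference after Hist1h2ac. It read 10.08, 9.72 and 9.87 in the controls, 9.06, 9.0 and 9.90 in the Dicer-deleted and 9.78, 9.57 and 9.63 in the Drosha-deleted samples. Dicer-deleted 1 and 2 lay below all others, while Dicer-deleted 3 lay within the control range. The difference was -0.57 ± 0.23 (SE; limma adjusted p = 0.204), -0.76 against control 1 alone and -0.48 against controls 2 and 3 alone, short of the threshold. The brighter probe named Hist2h2aa2, at chr3:96049837-96049896 on the + strand of mm9, is placed just before the Hist2h2aa1 probe on the same strand. It lists 2 RefSeq transcripts and may read the same gene, and it gave -0.10 (limma adjusted p = 0.637). Other genes with the smaller p-values were Hist2h2bb (0.65), Hist1h3f (0.73), Hist1h1e (0.68) and Hist1h2bp (0.35), with limma adjusted p-values from 0.252 to 0.279. Of these only Hist1h2bp, at 0.64, was positive against control 1 alone, where the others gave -0.11, -0.17 and -0.25. Against controls 2 and 3 alone they were 1.04, 1.18 and 1.15, each past the threshold, and Hist1h2bp was 0.21.

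The difference between the deletions does not use the control values, but its errors and p-values do, since the spread was estimated over all 9 columns. Here 36 of the 46 tested genes were higher in the Drosha-deleted cells (50.0% of all genes), with a median difference of 0.18 against 0.00 over all genes. Limma called 0 members, where 0.0528% of all genes were called higher and 0.0048% lower. There were 3 members higher (3.29% of all genes) and 1 lower (2.54%) at an unadjusted p under 0.05, 4 in all (5.83%), and 7 higher (8.62%) and 2 lower (7.09%) whose groups did not overlap. By class the median was 0.23 for H1, 0.18 for H2A, 0.06 for H2B, 0.30 for H3 and 0.34 for H4. Array weights called 0 members as well, with 0.533% of all genes higher and 0.211% lower. The fit without control 1 called 0 members too, with 0.0816% of all genes higher and 0.0048% lower. It left 10 members at an unadjusted p under 0.05 in place of 4, and 2028 of all 20842 genes in place of 1216.

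The 7 higher genes without overlap were Hist1h4k, Hist1h4d, Hist2h4, Hist1h3d, Hist2h2ab, Hist1h2ah and Hist2h2ac. For Hist1h4k, with the values given above, the difference was 0.39 ± 0.15 (SE; 95% interval 0.04 to 0.74; limma adjusted p = 0.781). Hist1h3d, an H3 gene, read 15.70, 15.52 and 15.55 in the Drosha-deleted and 15.15, 15.32 and 15.46 in the Dicer-deleted samples, which is 0.28 ± 0.12 (SE; limma adjusted p = 0.842), and its controls, at 15.43 to 15.62, overlapped with both. Hist1h3a gave 0.43 (limma adjusted p = 0.832), with Drosha-deleted 2 below Dicer-deleted 3. Hist4h4 gave 0.42, Hist1h3g 0.48 and Hist2h2aa2 0.24, each with overlapping groups. The lower genes were Hist2h2be, at -0.38 ± 0.13 (SE; limma adjusted p = 0.658), and Hist1h2bp, an H2B gene at 6.67, 6.78 and 6.34 in the Drosha-deleted and 6.83, 6.86 and 7.23 in the Dicer-deleted samples, at -0.38 ± 0.18 (SE; limma adjusted p = 0.903). In a test of any difference among the 3 groups 0 members passed, where 0.125% of all genes did, and 12 members had an unadjusted p under 0.05 (22.4% of all genes).

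The samples within a group were not alike. The median deviation over all 46 genes was 0.07, -0.18 and -0.14 in controls 1 to 3, 0.25, 0.08 and 0.09 in Drosha-deleted 1 to 3, and -0.18, -0.05 and 0.15 in Dicer-deleted 1 to 3. Dicer-deleted 3 thus stood above 2 of the 3 Drosha-deleted samples, and control 1 above 2 of the 3 Dicer-deleted samples. For H4 genes the deviations were 0.36, 0.21 and 0.27 in the Drosha-deleted, -0.12, -0.10 and 0.20 in the Dicer-deleted, and 0.10, -0.46 and -0.34 in the control samples. Here the Drosha-deleted samples were the highest 3 and controls 2 and 3 the lowest pair. The median SD of the tested members within a group was 0.25 in the control, 0.14 in the Drosha-deleted and 0.18 in the Dicer-deleted cells, against 0.23, 0.17 and 0.14 over all genes.

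**Figure D5:**
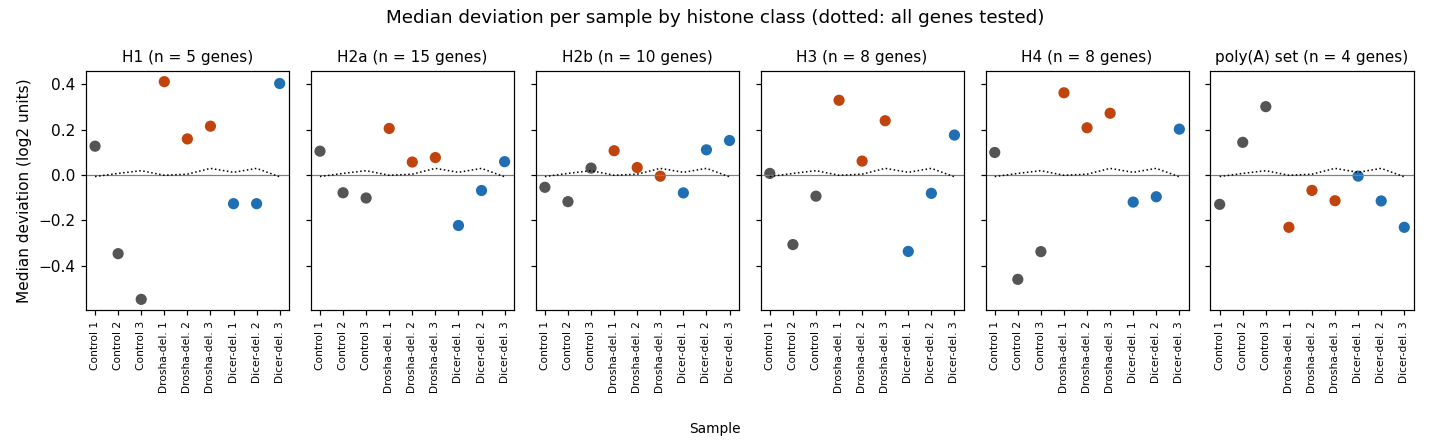
Each panel is 1 histone class, or the 4 genes reported to give polyadenylated transcripts, the horizontal axis lists the 9 samples, points are the median deviation of the class from each gene's own mean in log2 units, and the dotted line is the same over all genes tested. For H4 the Drosha-deleted samples lie at 0.21 to 0.36 and controls 2 and 3 at -0.46 and -0.34.

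Controls 2 and 3 were both below the other 7 columns for 18 members (23.3% of all genes) and both above them for 2 members (23.4%), Hist1h2ac and Hist3h2a. The 18 included 6 of 8 H4 genes, 3 of 8 H3, 3 of 10 H2B, 4 of 15 H2A and 2 of 5 H1 genes. All 3 Drosha-deleted samples were above control 1 for 18 members (24.6%), among them 6 H3 and 6 H4 genes, and below it for 3 members (21.3%), Hist2h2aa1, Hist2h2be and Hist1h4h. All 3 Dicer-deleted samples were above control 1 for 6 members (27.2%) and below it for 11 (20.8%), of which 9 were H2A genes.

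The promoters of these genes show how the classes differ in sequence. RefSeq promoters of the GRCm38.p6 assembly were found for 41 of the 46 members matched to a current symbol, and 4 motifs were searched on both strands in the 250 bases before the start site, each counted also where it overlaps another. CCAAT occurred in 34 of 41 (82.9%), against 37.5% of all genes, and TATAAA in 21 of 41 (51.2%), against 14.3%. ATTTGCAT, the octamer bound by Pou2f1, occurred in 13 of 41 (31.7%), against 1.81%: it was in 7 of 14 H2A and 6 of 8 H2B promoters and in none of the H1, H3 and H4 promoters. GGTCC, the core of the H4 element bound by Hinfp, occurred in 14 of 41 (34.1%), against 42.9% of all genes, but in 7 of 7 H4 promoters, and CCAAT in 2 of those 7. Shown 5' to 3' with these motifs or their complements in capitals are the promoters of 2 H4 genes whose Drosha-deleted samples lay above all controls, Hist1h4c at chr13:23698459-23698708 on the - strand and Hist1h4d at chr13:23581318-23581567 on the + strand.
Hist1h4c: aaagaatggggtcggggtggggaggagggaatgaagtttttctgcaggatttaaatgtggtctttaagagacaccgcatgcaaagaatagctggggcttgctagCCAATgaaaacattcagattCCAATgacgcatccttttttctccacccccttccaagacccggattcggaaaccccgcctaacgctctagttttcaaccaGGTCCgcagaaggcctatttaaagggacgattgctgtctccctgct
Hist1h4d: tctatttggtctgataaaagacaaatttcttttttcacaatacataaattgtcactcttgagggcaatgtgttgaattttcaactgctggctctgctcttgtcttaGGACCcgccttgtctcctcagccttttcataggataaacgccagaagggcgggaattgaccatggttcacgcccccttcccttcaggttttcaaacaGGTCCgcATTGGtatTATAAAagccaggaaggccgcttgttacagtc
Both hold GGTCC near the start site. H2A and H2B genes often share a promoter from which they are transcribed apart, and 3 such pairs had overlapping windows: Hist1h2an with Hist1h2bp (239 of 250 bases), Hist1h2aa with Hist1h2ba (220) and Hist1h2ae with Hist1h2bg (179). The window of Hist1h2aa, at chr13:23934187-23934436 on the + strand, shows the octamer and CCAAT motifs of such a pair.
Hist1h2aa: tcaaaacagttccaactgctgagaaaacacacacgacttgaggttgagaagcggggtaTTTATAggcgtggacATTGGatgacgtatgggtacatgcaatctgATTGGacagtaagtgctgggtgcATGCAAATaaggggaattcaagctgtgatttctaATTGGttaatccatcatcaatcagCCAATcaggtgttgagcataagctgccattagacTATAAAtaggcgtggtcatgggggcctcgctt
Values of a pair are given side by side, and the differences within pairs were not tested. Between Dicer-deleted and control cells Hist1h2aa gave 0.96 and Hist1h2ba 0.10, and Hist1h2an gave -0.05 and Hist1h2bp 0.35. Hist1h2ae and Hist1h2bg gave 0.01 and 0.03.

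Genes that act on histone mRNA did not pass the test in any comparison. Of 22 genes for transcription and 3' end processing of histone mRNA 21 were tested, and 0 passed in any of the 3 comparisons. These are taken in the order Drosha-deleted against control, Dicer-deleted against control and Drosha- against Dicer-deleted. At an unadjusted p under 0.05, 0, 2 and 0 were higher, where 15.8%, 13.1% and 3.29% of all genes were. There were 4, 2 and 0 lower, where 11.8%, 9.05% and 2.54% of all genes were. Npat, the S phase activator of histone genes, was below the filter. Slbp, which binds the stem-loop, read 10.93, 11.78 and 11.55 in the controls, 11.15, 11.04 and 10.46 in the Drosha-deleted and 11.00, 10.81 and 10.94 in the Dicer-deleted samples. Controls 2 and 3 were its highest values, and the difference of -0.54 (limma adjusted p = 0.193) was -0.04 against control 1 alone. Mif4gd, a translation partner of Slbp, gave -0.36 (adjusted p = 0.118), and Lsm10, a subunit of the U7 particle that cuts histone precursors, gave -0.36 (adjusted p = 0.120). Against control 1 alone they were -0.26 and -0.19. None of 16 histone chaperone genes passed in any comparison. At an unadjusted p under 0.05, 3 were lower in the Drosha-deleted cells (11.8% of all genes) and 1 higher in the Dicer-deleted cells (13.1%). In the Drosha- against the Dicer-deleted cells 1 was lower (2.54%).

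Histone genes outside the clusters, many of which make protein throughout the cell cycle, did not pass either (0 of 12 tested in each comparison). At an unadjusted p under 0.05 there were 6, 5 and 2, where 27.6%, 22.2% and 5.83% of all genes were. H2afx, whose product marks broken DNA, read 13.56, 14.34 and 14.31 in the controls, 13.31, 13.21 and 13.44 in the Drosha-deleted and 13.34, 13.23 and 13.48 in the Dicer-deleted samples. All deleted samples lay below all controls. The differences were -0.75 (limma adjusted p = 0.106) in the Drosha-deleted and -0.72 (adjusted p = 0.163) in the Dicer-deleted cells, and the first was -0.24 against control 1 alone. H2afz, a variant H2A gene, gave 0.13 and -0.03. H2afy2 and H2afy, which encode macroH2A proteins, gave 0.73 and 0.63 in the Drosha-deleted cells, and 0.22 and 0.14 against control 1 alone. H1f0, a linker histone gene of resting cells, gave -0.79 (adjusted p = 0.142), and -0.50 against control 1 alone. Between the deletions H1fx gave -0.51 (limma adjusted p = 0.367), with Drosha-deleted samples at 8.78 to 9.12 and Dicer-deleted samples at 9.36 to 9.60.

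Cell cycle genes were examined beside the histone genes, since histone mRNA rises and drops with S phase. None of 30 S phase genes passed in any comparison, and their median deviation stayed between -0.04 and 0.10 in all 9 samples. At an unadjusted p under 0.05 there were 6, 7 and 3, where 27.6%, 22.2% and 5.83% of all genes were. Ccne2, a cyclin of S phase entry, gave 1.41 in the Drosha-deleted cells (limma adjusted p = 0.100), and 0.38 against control 1 alone, with controls at 7.05, 5.56 and 5.45. E2f7, a repressor of S phase genes, gave 0.59 between the deletions (limma adjusted p = 0.376). None of 15 G2 and mitosis genes passed (5, 3 and 0 at an unadjusted p under 0.05, beside the same 27.6%, 22.2% and 5.83% of all genes). Their median deviation was -0.01, -0.12 and -0.21 in the controls and 0.06 to 0.14 in the Drosha-deleted samples, the same side as the H4 genes, and their part in the histone values was not tested. Aurkb, a mitotic kinase, read 8.93 in control 1, 6.69 and 6.32 in controls 2 and 3, and 8.86 to 9.08 in the deleted samples. Mki67, which marks dividing cells, lay between 15.05 and 15.39 in all 9 samples.

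Markers of other blood cells differed between samples too. The T cell markers tested, 3 of 5, had a summed level of 11.93 to 12.98 in the control, 13.17 to 13.24 in the Drosha-deleted and 13.06 to 13.25 in the Dicer-deleted samples, with the defining genes Cd3g and Cd8a below the filter. Of these 3 genes 2 had a difference above 0 and 1 below 0 in each deletion against control, and 0 passed the test. In the Drosha-deleted cells 1 gene lay wholly above the control (12.6% of all genes) and 1 wholly below it (10.6%). The 5 megakaryocyte markers had a summed level of 18.65 to 18.83 in the control, 18.35 to 18.64 in the Drosha-deleted and 18.15 to 18.39 in the Dicer-deleted samples, so that neither deleted group overlapped with the control. Of the 5 genes 0 passed the test. At an unadjusted p under 0.05, 4 were lower in the Dicer-deleted (9.05% of all genes) and 1 lower in the Drosha-deleted cells (11.8%). The neutrophil lineage markers, 9 of 10 tested, had a summed level of 19.45 to 20.28 in the control, 19.92 to 20.39 in the Drosha-deleted and 18.92 to 20.24 in the Dicer-deleted samples. The 8 monocyte and macrophage markers had a summed level of 16.27 to 17.13 in the control and 16.26 to 16.62 in the Drosha-deleted samples. In the Dicer-deleted samples it was 16.41 to 17.07. In the Drosha-deleted cells 7 of the 8 had a difference below 0 and 1 above 0. At an unadjusted p under 0.05, 1 was lower (11.8% of all genes) and 1 higher (15.8%). Only Cd14 passed the test, with a difference of -1.26 in the Drosha-deleted cells (limma adjusted p = 0.0301). The part of these cells in the histone values was not tested.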

How the data were processed

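RNA of 9 samples was hybridised to 1-colour Agilent arrays of design 028005 with probes placed on mm9. Per the file headers, the deposited scanner files hold Cy3 intensity values made with Feature Extraction 10.7.3.1. The authors' deposited value table is in log2 units and its columns have nearly the same quantiles, with medians of 6.36 to 6.38. The submitters' processing notes name limma without a version, and neither the background step nor which array lies behind a column is stated. How the RNA was primed for labelling, which bears on mRNAs without a poly(A) tail, is not given in the sources used here.

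The log2 values were used as the main values, since the members were defined on them and 1 scanner file stood apart, and the scanner intensity values (log2, less each array's 75th percentile) as an alternative. Control spots were left out, spots of a probe were averaged, and a gene was represented by its probe with the highest mean. Genes whose mean exceeded the median of all probes, 6.28, were tested (20842). A mean per group was fitted over all 9 columns with limma 3.58.1 in R 4.3.3, with moderated two-sided tests, read with version 1.17.8 of data.table, and p-values were adjusted by Benjamini-Hochberg over all genes tested at a threshold of 0.05. The script was tested on simulated data. Precision is limited by the number of arrays.

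The members and lists were chosen with earlier results of these data known. In each comparison the text names every member past the threshold, or else the 10 with the smallest p, then the highest and lowest member of a class, members whose probes differ in sign, and up to 4 genes of each list; other members named were chosen after their values were seen. Symbols were matched by accession to the RefSeq table of GRCm38.p6 for 46 of 48 members. Same-numbered samples did not deviate together (correlations of -0.179 to 0.116).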

Additional observations from a re-analysis of the deposited data

How the results depend on the processing

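In all alternatives but array weights and leaving out control 1, limma called 0 members in each comparison. Array weights called 26 members in the Drosha-deleted cells and 17 in the Dicer-deleted cells against control, and 0 between the deletions. Of all genes they called 11347, 9893 and 155 in these 3 comparisons, where the main counts were 37, 3 and 12. In the test of any difference among the 3 groups they called 29 members. All genes were not counted for that setting, so this count cannot be read as particular to the members. Leaving out 1 sample at a time gave 0 to 20, 0 to 11 and 0 to 0 members in the 3 comparisons, and 4 to 7319, 0 to 6628 and 4 to 18 of all genes. Among the 3 groups it gave 0 to 18 members, again without a count of all genes and with the same limit. Each of the highest counts against control came without control 1. Median differences of the members ranged over 0.135 to 0.309, 0.025 to 0.221 and 0.100 to 0.247. With the replicate block, counts of all genes were 4, 0 and 4, and no call of a member changed; the numbers do not pair the samples. With slide as a block 12 and 7 genes were called for Drosha-deleted against control and against Dicer-deleted. Since control 3 was alone on its slide, this gave the same counts as leaving out control 3 and is no test of the slide. The scanner values called 7, 0 and 6 genes, without control 2 they called 8 and 5 in the comparisons with Drosha-deleted cells, and with normexp 1, 0 and 1. The members' median for Drosha-deleted against control was 0.646 with the scanner values, where that of all genes was 0.37, and 0.351 with normexp, where it was 0.222. For Dicer-deleted against control it was 0.436 with the scanner values, against 0.391 over all genes. Control 1 as the only control, an alternative chosen after the data were seen in which the lone sample is assumed to vary like the other groups, called 20 genes for Dicer-deleted against control, where the members' median turned to -0.110. The cause was not tested. Single members were followed under the alternatives only where they had the smallest p-values in a comparison, not for every member named in the text. Of these 570 values 533 kept their side of the threshold, 37 passed it, and 5 had the other sign. Since the members were picked by p in the same data, this does not speak for the signs of the others. With all 3 controls 40 of the 46 tested members lay above 0 in the Drosha-deleted cells, and 33 did against control 1 alone. In the Dicer-deleted cells these counts were 30 and 17. Signal over background limits Hist1h2ac and Hist2h3c2-ps, which were not well above background on every array.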
